A study of Mus musculus with 144 samples.

Results

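The genes of the cytosolic ribosomal proteins were followed in mouse whole blood for 12 months after particles had been placed in the airways. A gene was taken as a member when a probe set of the array was annotated to exactly 1 gene symbol that began with Rpl or Rps and a digit, or that was Rplp0, Rplp1, Rplp2 or Rpsa. Symbols of the Rps6k kinases (6), of pseudogenes (15) and of look-alike genes (9) were left out, as were Rps19bp1 and Rps23rg1, which are named for a binding partner and a retrogene. This left 58 genes, 23 of the small and 35 of the large subunit, out of 22180 genes measured by 23521 probe sets. Where a gene had several probe sets (25 genes, 99 probe sets in all), the brightest stood for it. A further 13 ribosomal protein genes, among them Rpl10, Rps2 and Rps21, were read only by probe sets that name several genes, and were no members.

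The cytosolic ribosome makes nearly all proteins of the cell. Its small subunit reads the mRNA and its large subunit joins the amino acids, and each is built from ribosomal RNA and a set of ribosomal proteins of which a single copy of nearly every kind is needed. The mRNAs of these proteins begin with a run of pyrimidines, the 5′ terminal oligopyrimidine (TOP) tract, by which the kinase mTOR and the protein LARP1 set how much of them is translated. In humans, loss of 1 copy of many of these genes causes Diamond-Blackfan anaemia, in which too few red cells are made. Blood holds reticulocytes, which still carry ribosomes, platelets with a remnant of RNA, and white cells, of which lymphocytes are small resting cells with a high share of ribosomal protein mRNA.

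The mice were male C57BL/J6, 7 weeks old at the start and housed singly. Each received a single dose by pharyngeal aspiration, in which a drop on the base of the tongue is breathed into the lungs. The exposed groups received 120 µg of crocidolite, an amphibole asbestos that served as the positive control, or multi-walled carbon nanotubes (MWCNT) at 1, 10, 40 or 80 µg, and the control mice received the dispersion medium (DM) alone, which all particles were suspended in. Blood was taken 1, 6 or 12 months later from different mice, with 6 to 9 mice in each of the 18 groups. No transgene or cell line was involved, and age and time since exposure advanced together.

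The start of the transcript is shown for 6 members that changed at 12 months, because the TOP tract is what the family is known to share. Each line holds 15 bases before and 15 bases from the RefSeq start (GRCm38.p6), 5′ to 3′. Capitals mark a run of C and T that opens with a C within 10 bases of the start and goes on for at least 4 more.
Rpl35: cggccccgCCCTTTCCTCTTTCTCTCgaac
Rpl38: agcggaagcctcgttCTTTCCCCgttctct
Rps10: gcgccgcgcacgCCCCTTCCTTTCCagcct
Rpl14: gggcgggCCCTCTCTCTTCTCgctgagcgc
Rps13: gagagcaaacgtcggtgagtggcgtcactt
Rps28: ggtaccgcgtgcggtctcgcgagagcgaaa
The first 4 hold such a run at the listed start and the last 2 hold none in this window. These 6 lines do not give the share in the family. Whether the listed starts are those used in blood was not tested. A window without a run thus does not show that the mRNA lacks a TOP tract. The windows lie at chr2:39005117-39005146 on the minus strand for Rpl35, chr11:114668565-114668594 on the plus strand for Rpl38, chr17:27635230-27635259 on the minus strand for Rps10, chr9:120571502-120571531 on the plus strand for Rpl14, chr7:116334176-116334205 on the minus strand for Rps13 and chr17:33824548-33824577 on the minus strand for Rps28.

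The promoter table matched 45 of the 58 members. These members had 52 promoters there, as some have several starts. A C at the listed start followed by at least 4 pyrimidines, on the transcript's strand, was found in 10 of the 52 (19.2%), against 2.51% of all 32851 promoters in the table. Anywhere from 10 bases before to 10 after the start it was found in 27 of the 52 (51.9%), against 30.7% of all promoters. Counted by gene, 10 of the 45 members held it at a start and 25 within 10 bases of one. Of the 22 members that passed the test at 12 months with crocidolite or in the nanotube trend, 18 had a promoter, and 11 of these held the motif within 10 bases (61.1%), 5 of them at the start.

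Expression is given as log2 expression value, on which a difference of 1 is a doubling. Changed means an adjusted p under 0.10 (limma, Benjamini-Hochberg over all 23521 probe sets), the false discovery rate of the study. The study also required a change of at least 1.5-fold. That minimum was applied here only as an alternative. Of all arrays, 13 stood apart with a median correlation under 0.85 with the others. Of these, 9 were of the exposed groups at 12 months and none of the DM mice of that month. The array spread, a measure of how far an array's values lie from the typical ones, had a median of 0.59 to 0.67 in the 5 exposed groups at 12 months and of 0.58 in the DM mice of that month. As blood is a mixture, fewer cells of a type and less RNA per cell could not be told apart.

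The signals of the members were uneven, and since a signal depends on the probes, it does not rank the genes by amount. The mean over mice had a median of 6.83 over the 58 members and of 1.58 over all probe sets. The brightest were Rpl41 (11.71), Rpl21 (11.70), Rpl28 (10.95), Rplp1 (10.24), Rps6 (10.19) and Rpl4 (10.14). The dimmest were Rps14 (0.996), Rpl39 (1.13), Rpl30 (1.21), Rplp2 (1.29), Rpl27a (1.42) and Rpl37a (1.53). Of the 58, 53 lay above 1.51, the level that 90 of 100 olfactory receptor probe sets stay under in blood, and Rps14, Rpl39, Rpl30, Rplp2 and Rpl27a lay below it.

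The members did not vary alike over the mice of all 18 groups. The SD over mice was largest for Rps15 (0.868), Rps23 (0.835) and Rps16 (0.787), with signals of 1.95, 2.04 and 2.57, and smallest for Rpl21 (0.166), Rpl41 (0.195) and Rpl19 (0.20). With group means removed, the correlation between 2 members had a median of 0.19 over 1653 pairs and was positive in 80.2% of them, and 34 members correlated at over 0.5 with the mean of the others. Values of 1 mouse share an array, so this is a description. Rpl13 and Rpl15 followed the mean of the others most closely over all mice (r = 0.84 each), with Rps24 at 0.81. Rpl11, Rpl30 and Rplp2 ran weakly against it (r = -0.10, -0.18 and -0.09). Their signals of 1.55, 1.21 and 1.29 lay near the olfactory receptor level of 1.51. Rpl4, a bright member whose protein lines the exit tunnel, hardly followed the mean of the others (r = 0.13). Of the members, 21 had a signal under 4, and the pairwise correlations were not computed apart for the brighter ones.

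Over the 18 groups the mean of all 58 members was highest in the DM mice of 12 months and lowest in the crocidolite mice of 12 months. In the crocidolite mice of 12 months it ran from 5.56 to 6.12 with a median of 5.82 (mean 5.81 ± 0.18, SD, n = 8). In the DM mice of 12 months it ran from 5.94 to 6.34 with a median of 6.26 (mean 6.20 ± 0.14, n = 8), so that the groups overlapped only between 5.94 and 6.12. The next in order were the mice of 10 µg MWCNT at 1 month (6.08 ± 0.07, n = 6), 1 µg MWCNT at 12 months (6.05 ± 0.16, n = 9) and crocidolite at 1 month (6.01 ± 0.33, n = 7). The other 13 groups lay between 5.85 and 5.99, each within 0.04 of its neighbour in the order, which is less than the SD of any group.

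**Figure D1:**
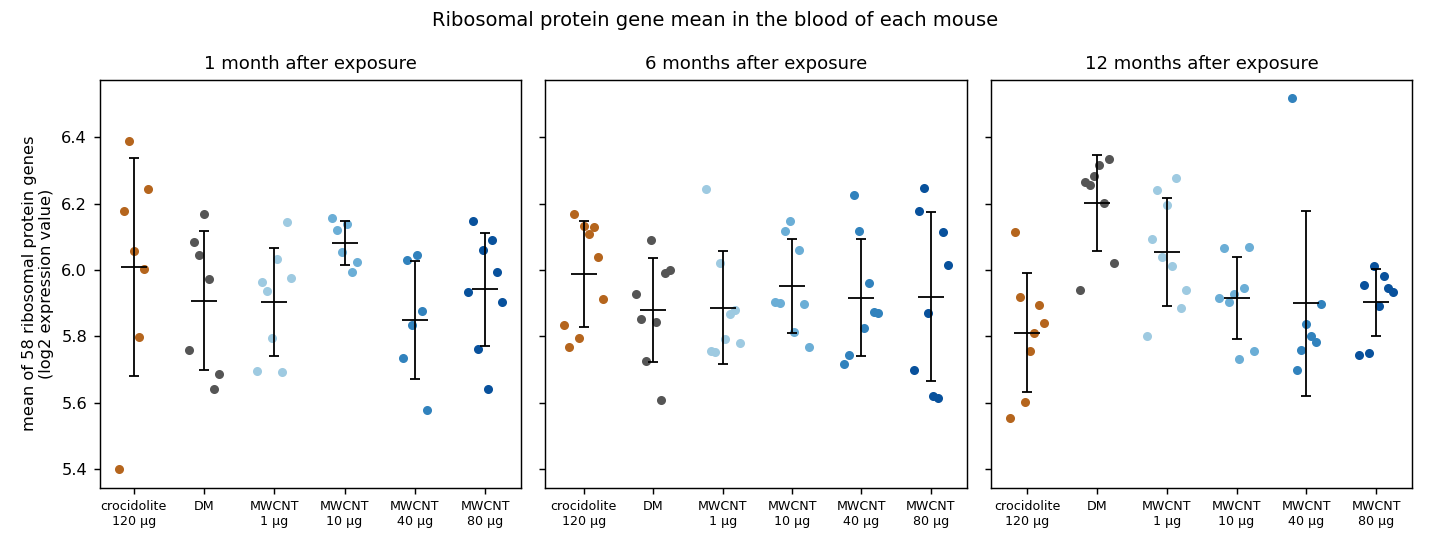
Mean of the 58 ribosomal protein genes (log2 expression value, vertical axis) in each mouse, by exposure (horizontal axis) and month (panels); bars show mean ± SD. At 12 months the crocidolite mice average 5.81 and the DM mice 6.20, while 1 mouse of the 40 µg MWCNT group stands at 6.52.

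The group means were also ranked gene by gene. These genes make up the mean of all 58 members, so the counts describe it and add no separate evidence. Of the 58 members, 36 had their highest group mean in the DM mice of 12 months, and 43 had that group among their top 3. The crocidolite mice of 12 months held the lowest group mean of 26 members, and the mice of 40 µg MWCNT at 1 month that of 11. Each of these groups was among the lowest 3 for 28 members. At 1 month the DM mice held the highest mean of 1 member and at 6 months of none. Every comparison with DM at 12 months thus used the same 8 control mice, in which the family stood higher than in any other group of the series, and the exposed mice of 10 to 80 µg MWCNT at 12 months (5.91, 5.90 and 5.90) stood near the DM mice of 1 month (5.91) and of 6 months (5.88).

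**Figure D2:**
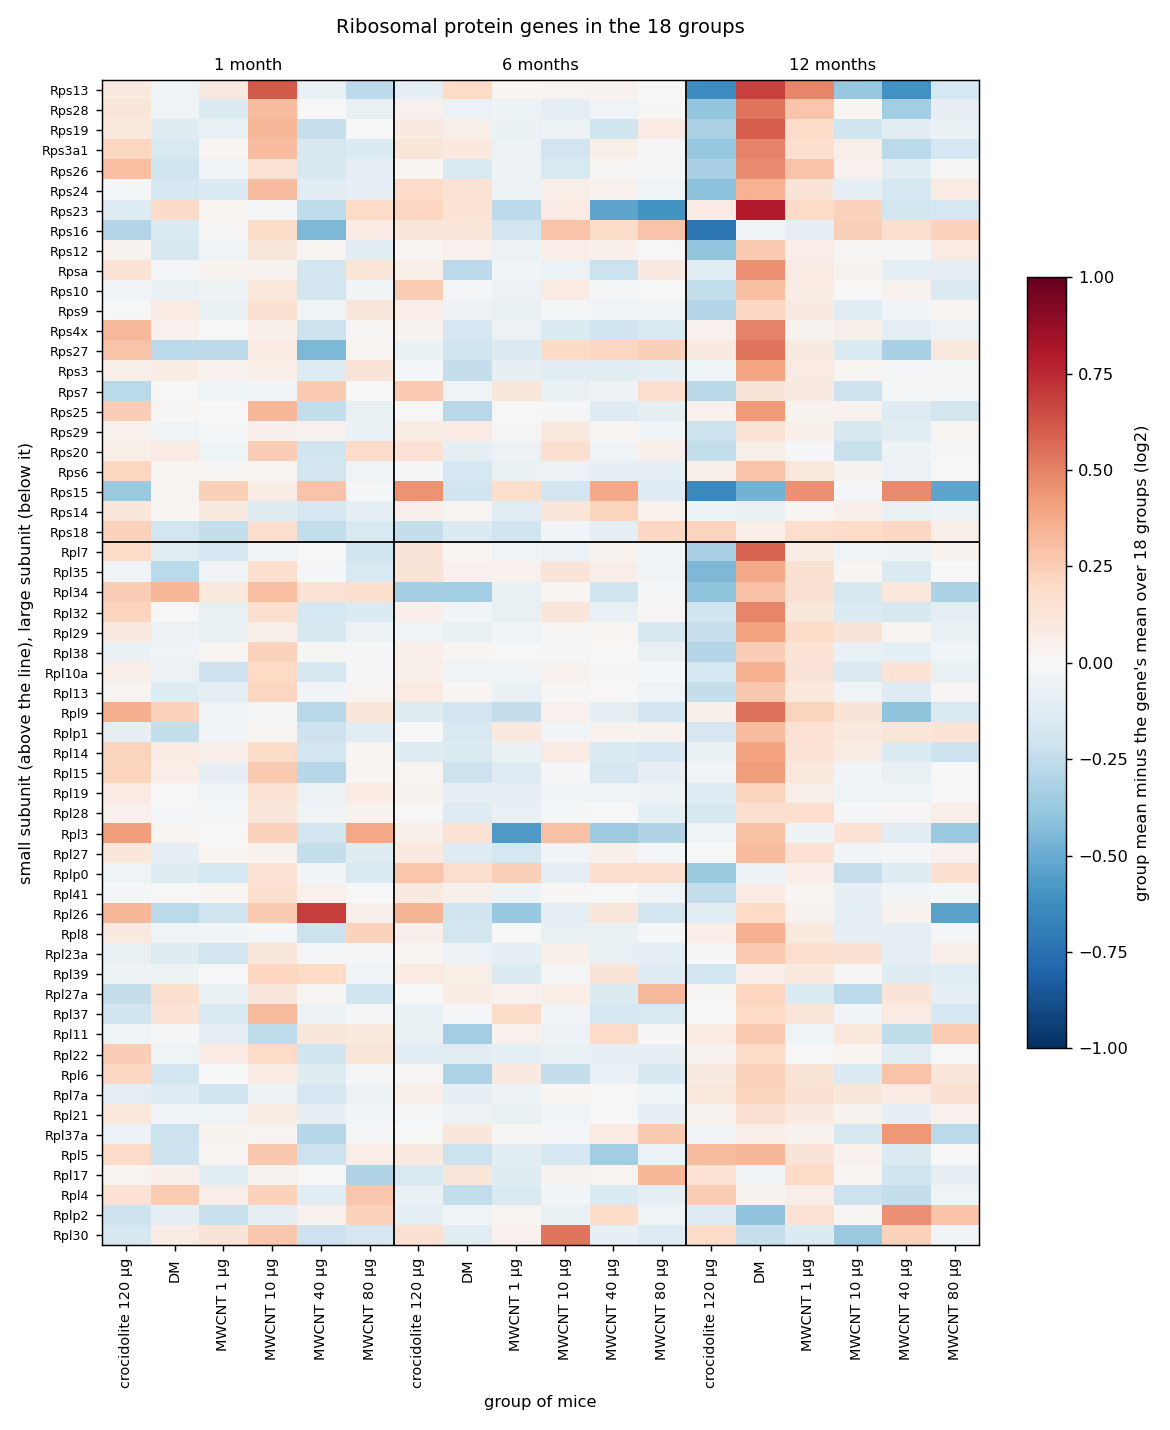
Group mean of each member minus its mean over the 18 groups (log2, colour scale), genes down the page by subunit and groups across by month. The column of DM mice at 12 months is the highest of the 18 for 36 of the 58 genes, and the crocidolite column beside it is the lowest for 26.

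Of all comparisons with DM, crocidolite at 12 months had the most members called. In crocidolite mice 16 of the 58 members were lower, none was higher and 42 did not pass, against 2.48% of all probe sets changed and 2.02% lower. The median difference was -0.37 over the members and -0.07 over all probe sets, and 52 of the 58 differences were below 0. Among the 7419 probe sets with a mean above 2.53, the lower quartile of the members' signals, 5.42% were lower with a median difference of -0.20, while 16 of the 43 members in that range were lower (37.2%).

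Both subunits were among the lower genes. Of the 23 small subunit genes 10 were lower, with a median difference of -0.50, and of the 35 large subunit genes 6 were lower, with a median of -0.31. The mean over the small subunit genes differed by -0.53 ± 0.11 (SE) between crocidolite and DM mice, and that over the large subunit genes by -0.30 ± 0.08. The difference between the subunits was not tested.

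Rps13, a small subunit protein, had the largest difference. It ran from 3.59 to 5.83 with a median of 5.07 in the 8 crocidolite mice, against 5.86 to 6.72 with a median of 6.17 in the 8 DM mice. The groups did not overlap, and the difference was -1.31 ± 0.35 (adjusted p = 0.0386). Rps28, one of the smallest proteins of the small subunit, ran from 6.07 to 7.37 (median 6.88) in crocidolite mice and from 7.44 to 8.0 (median 7.76) in DM mice. These groups did not overlap either, with a difference of -0.92 ± 0.21 (adjusted p = 0.0105). Rpl35, which sits at the mouth of the large subunit's exit tunnel, ran from 8.82 to 9.62 (median 9.39) in crocidolite mice and from 9.67 to 10.43 (median 10.09) in DM mice, again apart, with a difference of -0.83 ± 0.19 (adjusted p = 0.0108). These were the only 3 members in which every crocidolite mouse lay below every DM mouse, which held for 0.123% of all probe sets.

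Rps19, the gene most often mutated in Diamond-Blackfan anaemia, ran from 5.76 to 6.72 (median 6.33) in crocidolite mice and from 6.42 to 7.52 (median 7.29) in DM mice. A single DM mouse lay in the range of the crocidolite mice, and the difference was -0.92 ± 0.21, a 1.89-fold lower level (adjusted p = 0.0122). Rpl7, a large subunit protein, ran from 6.20 to 7.39 (median 7.06) in crocidolite mice and from 7.22 to 8.27 (median 8.0) in DM mice. It differed by -0.91 ± 0.20 (adjusted p = 0.0101) with some overlap. The other named falls were in Rps3a1 (-0.87 ± 0.27, adjusted p = 0.0774), Rps26, which lies where the mRNA leaves the ribosome (-0.79 ± 0.21, adjusted p = 0.0392), and Rps24 (-0.76 ± 0.19, adjusted p = 0.0273). The remaining 8 members that were lower, Rps12, Rpl29, Rpsa, Rps10, Rpl38, Rpl13, Rps9 and Rpl19, differed by -0.66 to -0.35.

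**Figure D3:**
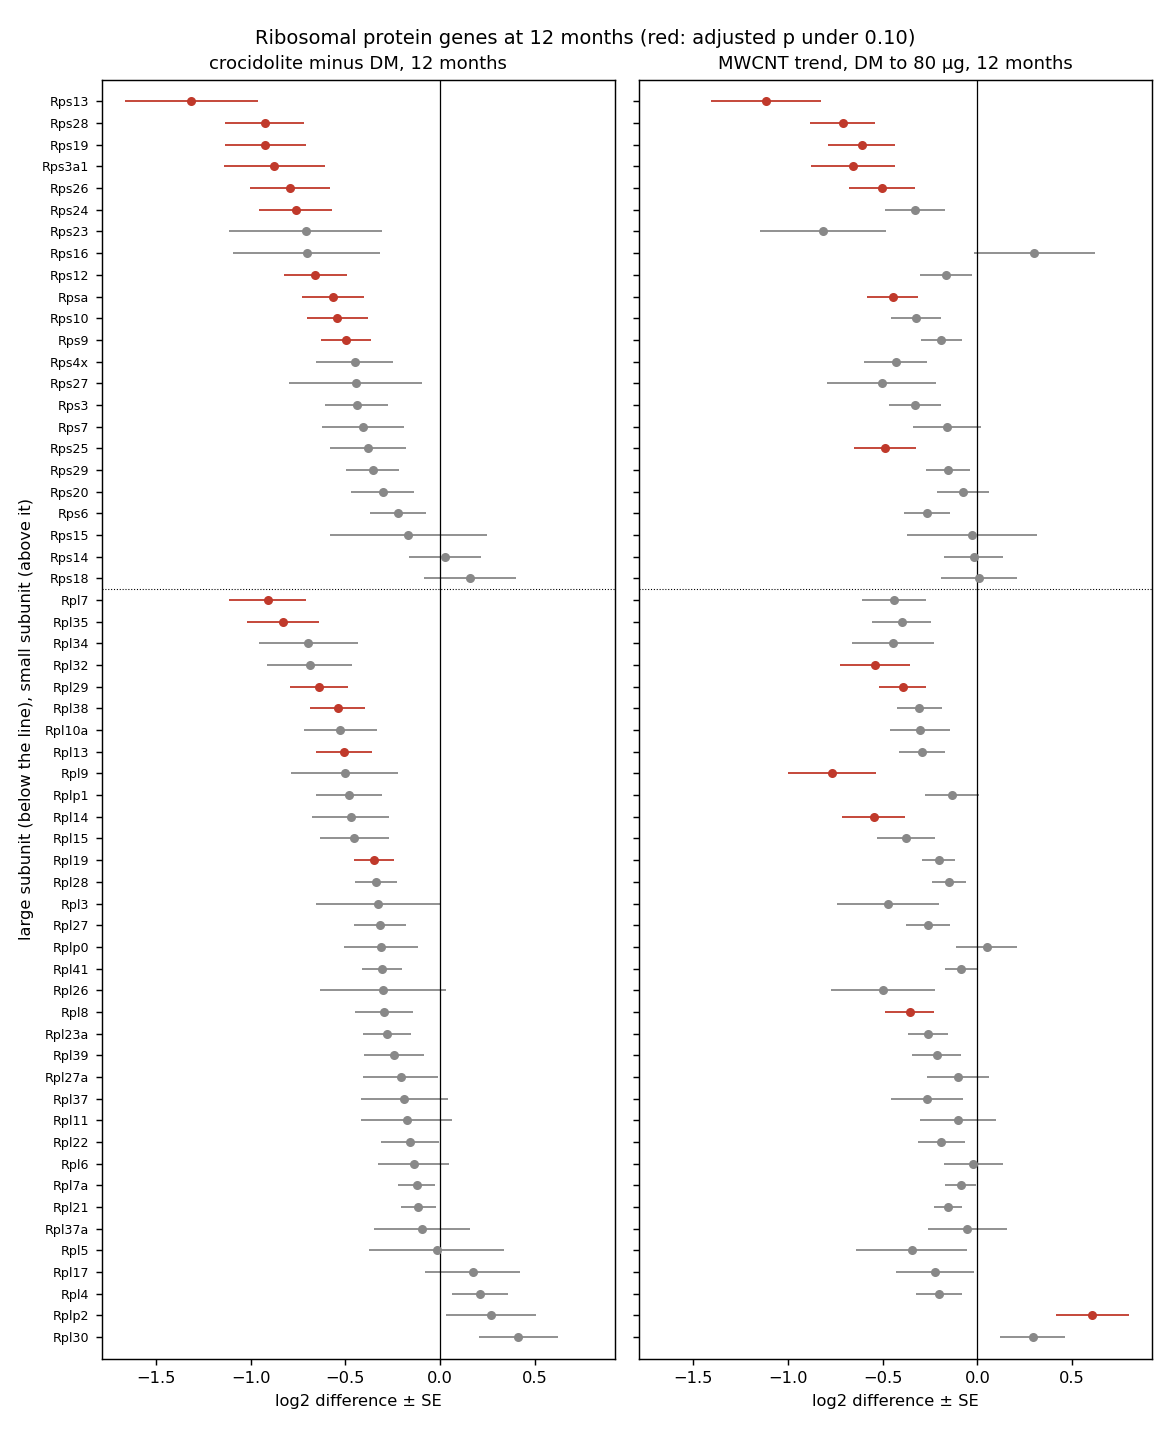
Log2 difference ± SE (horizontal axis) of each of the 58 members (down the page, small subunit above the dotted line) for crocidolite minus DM and for the MWCNT trend, both at 12 months; red marks an adjusted p under 0.10. In the left panel 52 of 58 points lie below 0, 16 of them red, and in the right panel 53, of which 12 are red.

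Of the members at or above 0 none passed. Rpl30 had the largest positive difference (0.41 ± 0.21, adjusted p = 0.329), then Rplp2 (0.27 ± 0.24) and Rpl4 (0.21 ± 0.15). The signals of Rpl30 (1.21) and Rplp2 (1.29) lay under the olfactory receptor level of 1.51, while that of Rpl4 was 10.14. The stalk that recruits elongation factors to the large subunit is made of Rplp0, Rplp1 and Rplp2. Rplp0 ran from 5.97 to 7.40 (median 6.71) in crocidolite mice and from 6.59 to 7.39 (median 7.08) in DM mice (-0.31 ± 0.20, adjusted p = 0.476), and Rplp1 differed by -0.48 ± 0.17 (adjusted p = 0.149). Rpl5 and Rpl11, which bind Mdm2 together with the 5S ribosomal RNA when ribosome assembly fails, differed by -0.02 ± 0.36 and -0.18 ± 0.24, at signals of 2.38 and 1.55. Of the 17 members known from Diamond-Blackfan anaemia in humans, 6 were lower (Rps19, Rps28, Rpl35, Rps26, Rps24 and Rps10) and 11 did not pass, with a median of -0.44, beside 16 lower of all 58 members with a median of -0.37.

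Other probe sets of the same genes were read beside the brightest. Of 41 such probe sets, 34 held values of their own, the others repeating the values of another probe set of Rps12, Rps19 or Rpl23a. Their sign matched that of the brightest in 27 of the 34 for crocidolite at 12 months, at a median signal of 2.57. Those that passed were 1 each of Rpl29 (-1.20 ± 0.25) and Rpl35 (-0.75 ± 0.20), 2 of Rpl41 (-0.49 ± 0.12 and -0.60 ± 0.15), 2 of Rps12 (-0.66 ± 0.19 and -0.71 ± 0.18) and 1 of Rps18, which was higher (0.68 ± 0.21) at a signal of 1.09. The brightest probe set of Rpl41 differed by -0.31 ± 0.10 and did not pass. In the nanotube trend at 12 months the sign matched in 24 of the 34, of which 2 probe sets passed in all. At 80 µg MWCNT against DM at 12 months it matched in 22 of the 34, and 1 probe set passed.

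The count of lower members with crocidolite fell to 6 without the arrays of low correlation, to 6 with the array spread as a covariate, to 6 by the methods' analysis of variance and to 10 when only the compared groups were fitted. The family mean differed by -0.39 ± 0.09, and by -0.35 ± 0.10 without the arrays of low correlation. It differed by -0.43 ± 0.11 within arrays numbered up to 96. Within the later ones, which held 2 crocidolite mice and 1 DM mouse of that month, it differed by -0.16 ± 0.17. The 2 crocidolite mice with low correlation averaged 5.68 and the other 6 averaged 5.85. In each nanotube group of 12 months the 1 or 2 such mice also averaged lower than the others. The part of array quality was not tested.

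Markers of blood cells were read in the same comparison, and most did not pass. There 2.02% of all and 5.42% of the brighter probe sets were lower, with a median of -0.20 over the brighter ones. Of 8 platelet markers measured, 3 were lower and the median difference was -0.53, with a summed level (mean over the list) of 8.50 to 10.13 in crocidolite mice and 9.91 to 10.28 in DM mice. Of 8 reticulocyte and erythroid markers 1 was lower (median -0.32), with a list mean of 6.13 to 7.42 in crocidolite mice and 6.73 to 7.33 in DM mice. None of 11 B cell, 10 T cell, 12 neutrophil or 10 monocyte markers passed, with medians of -0.28, -0.40, -0.27 and 0.25, and 1 of 8 natural killer markers was lower. The 6 markers of lung epithelium, which blood should lack, stayed at a list mean of 1.12 to 1.54 in crocidolite mice and 1.13 to 1.49 in DM mice. The part of the cell mixture in the fall of ribosomal protein genes was not tested.

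Nanotubes were compared with the same DM mice dose by dose, and as a straight line through DM and the 4 doses against log2(dose + 1), whose slope is given as the difference between its 80 µg end and its DM end. In the trend at 12 months 12 members were lower, 1 was higher and 45 did not pass, against 6.18% of all probe sets changed, 5.07% lower and 1.11% higher. The median was -0.27 over the members and -0.02 over all probe sets, and 53 of 58 were below 0. Among the brighter 7419 probe sets 14.7% were lower with a median of -0.30, close to the -0.32 of the 43 members in that range, of which 12 were lower (27.9%).

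Rps13 fell most along the doses, by 1.12 ± 0.29 on the log2 scale (adjusted p = 0.0256). Its median was 5.99 at 1 µg, 5.27 at 10 µg, 4.78 at 40 µg and 5.43 at 80 µg MWCNT, against 6.17 in DM mice. At 40 µg no mouse lay inside the DM range of 5.86 to 6.72, since 6 of the 7 mice ran from 3.58 to 5.145 and 1 mouse, which stood apart from its group, was at 7.30. Rps28 fell by 0.71 ± 0.17 (adjusted p = 0.0187), with medians of 7.58, 7.20, 7.03 and 7.14 from 1 to 80 µg and 7.76 in DM mice. Rps19 fell by 0.61 ± 0.18 (adjusted p = 0.0410), with medians of 6.98, 6.56, 6.32 and 6.51 over the doses and 7.29 in DM mice.

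The lowest group mean was at 40 µg for Rps13 (4.95) and Rps28 (6.85) and at 10 µg for Rps19 (6.43), where the median was lowest at 40 µg. Rpl9, a large subunit protein, fell by 0.77 ± 0.23 (adjusted p = 0.0521), Rps3a1 by 0.66 ± 0.22, Rpl14 by 0.55 ± 0.17, Rpl32 by 0.54 ± 0.19 and Rps26 by 0.50 ± 0.18. Rps25, which is needed for translation from some internal ribosome entry sites, Rpsa, Rpl29 and Rpl8, which lies near the peptidyl transferase centre, fell by 0.49 to 0.36. The member that was higher was Rplp2, by 0.61 ± 0.19 (adjusted p = 0.0644). It ran from 0.96 to 2.42 (median 1.47) in the 80 µg mice and from 0.51 to 1.82 (median 0.72) in DM mice, and both medians lay under the olfactory receptor level of 1.51. Rplp0 (0.05 ± 0.16) and Rplp1 (-0.14 ± 0.14), the other stalk genes, did not pass, nor did Rpl5 (-0.35 ± 0.29) or Rpl11 (-0.10 ± 0.20).

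**Figure D4:**
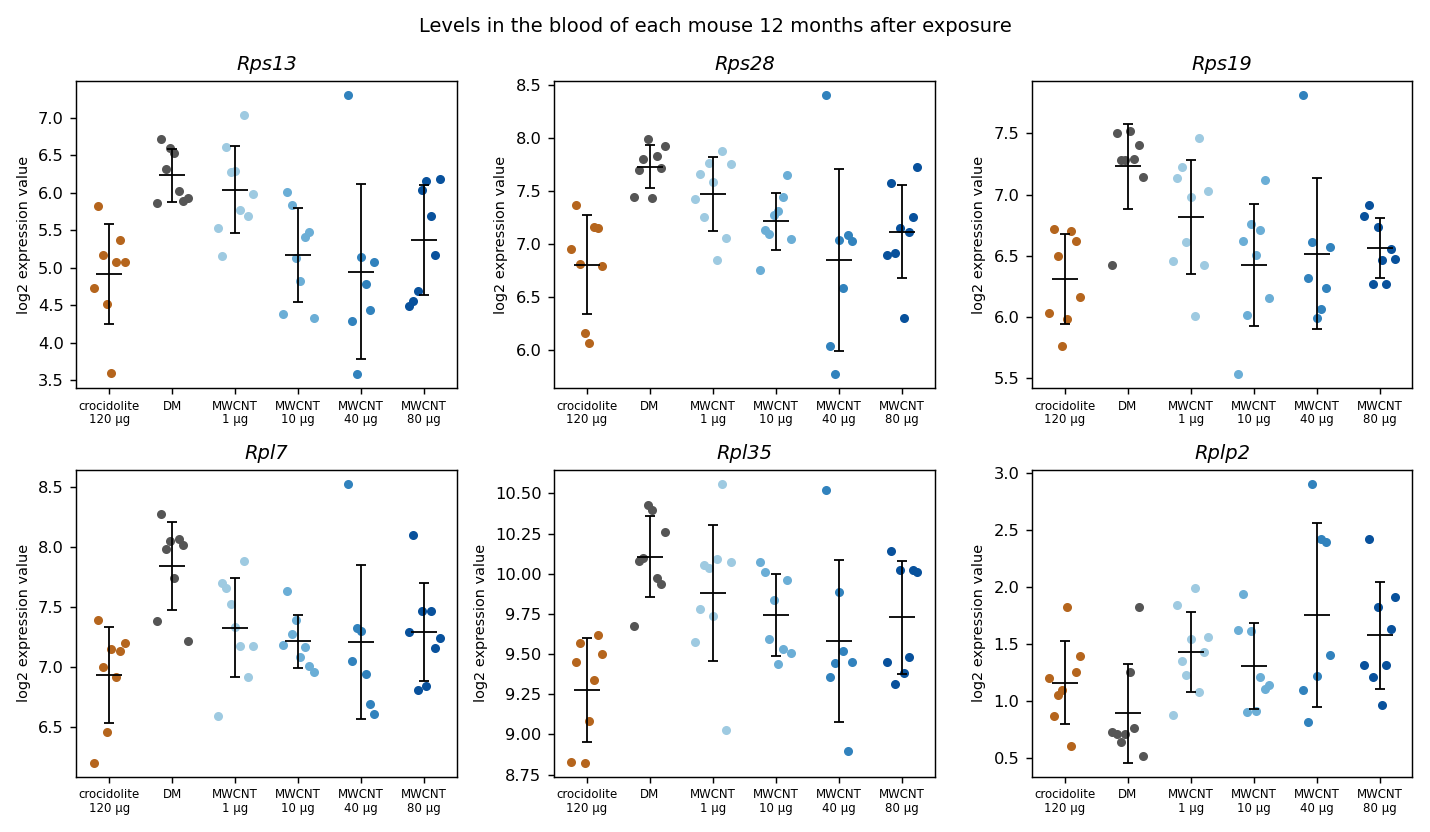
Log2 expression value (vertical axis) of 6 named members in each mouse 12 months after exposure, by group (horizontal axis), with mean ± SD. Rps13, Rps28 and Rpl35 show no crocidolite mouse at or above the lowest DM mouse, and a single 40 µg mouse is the highest of its group for Rps13, Rps28, Rps19, Rpl7 and Rpl35.

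No member passed in any single dose against DM at 12 months. The share of all probe sets that passed was 0% at 1 µg, 0.179% at 10 µg, 0.0425% at 40 µg and 1.22% at 80 µg. At an unadjusted p under 0.05 there were 7 of 58 members at 1 µg (3.85% of all probe sets), 20 at 10 µg (15.4%), 31 at 40 µg (10.9%) and 25 at 80 µg (14.3%). The family mean differed from DM by -0.15 ± 0.09 at 1 µg, -0.29 ± 0.09 at 10 µg, -0.30 ± 0.10 at 40 µg and -0.30 ± 0.09 at 80 µg (SE), so that the 3 higher doses did not differ from each other beyond their errors. Within arrays numbered up to 96 these differences were -0.18, -0.32, -0.23 and -0.41 from 1 to 80 µg, and within the later ones, with 1 DM mouse of that month, 0.04, -0.08, -0.20 and -0.07. The members nearest to passing were Rpl7 at 1 µg (-0.51 ± 0.20, adjusted p = 1.00), Rps19 at 10 µg (-0.81 ± 0.21, adjusted p = 0.103), Rps28 at 40 µg (-0.88 ± 0.22, adjusted p = 0.120) and Rpsa at 80 µg (-0.54 ± 0.16, adjusted p = 0.102).

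The count of the trend varied with the processing. It was 0 when the values were quantile-normalized a second time, 0 with the dose in µg, 0 over the 4 doses without DM, 1 with the array spread as a covariate and 3 without the arrays of low correlation. Without DM replicates 3, 5 or 7 it was 7, 8 and 5. The family mean followed the trend with -0.28 ± 0.08, with -0.31 ± 0.11 within arrays numbered up to 96 and with -0.16 ± 0.11 within the later ones. Of the mice of the 40 µg group 1 stood apart in the family mean, at 6.52 with the next at 5.90, and without it 23 members changed in the trend (9.6% of all probe sets), 22 of them lower, and 20 at 40 µg against DM (2.8%), 19 of them lower. The mouse was picked for its value, so these counts only describe how much it carries.

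Lymphocyte markers moved with the trend, in which 5.07% of all and 14.7% of the brighter probe sets were lower. Of 11 B cell markers 10 were lower with a median of -0.73, and of 10 T cell markers 5 were lower with a median of -0.66. The B cell list mean ran from 5.71 to 6.59 in 80 µg mice and from 6.35 to 7.36 in DM mice, and the T cell list mean from 4.09 to 4.84 in 80 µg mice and from 4.69 to 5.57 in DM mice. Reticulocyte and platelet markers gave 0 of 8 each, with medians of -0.02 and -0.09, while 1 of 10 monocyte, 2 of 8 natural killer and 0 of 12 neutrophil markers were lower, with medians of -0.21, -0.42 and -0.47. What the lymphocytes contribute to the ribosomal protein genes was not tested.

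Crocidolite and 80 µg MWCNT, the highest nanotube dose, were also set against each other at 12 months. No member passed, against 0.302% of all probe sets, and 8 of 58 had an unadjusted p under 0.05, against 13.9% of all. The family mean was lower with crocidolite by 0.09 ± 0.09, with a mean of 5.81 in crocidolite mice and 5.90 in 80 µg mice. The smallest p-values were those of Rps12 (-0.48 ± 0.17, adjusted p = 0.183), Rplp0 (-0.53 ± 0.20, adjusted p = 0.202) and Rps24 (-0.50 ± 0.19, adjusted p = 0.230).

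At 1 and 6 months hardly any probe set passed, so the calls say little about the family. No member passed in any of the 14 comparisons between exposed groups and DM, along the trend or between crocidolite and 80 µg MWCNT, where 0.0085% of all probe sets passed at 1 µg and 1 month and 0% in the other 13. The median difference of the members lay between -0.06 and 0.17, and at most 3 had an unadjusted p under 0.05 in any of them. The largest median was that of 10 µg MWCNT at 1 month, where Rps24 was nearest to passing (0.48 ± 0.22). In that comparison 10 of the 58 differences were below 0, against 48.9% of all probe sets. With crocidolite at 6 months 12 of the 58 were below 0, against 41.5% of all. At 40 µg MWCNT and 1 month 38 of the 58 were below 0, against 47.3% of all. With crocidolite the family mean stood at 6.01 against 5.91 in DM mice at 1 month, and at 5.99 against 5.88 in DM mice at 6 months.

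Whether the effect of crocidolite differed between months was asked with an F test over the 3 months. No member passed (0.0553% of all probe sets did), while 28 of 58 had an unadjusted p under 0.05, against 9.14% of all. The smallest was that of Rpl7 (adjusted p = 0.141), followed by Rps26 (adjusted p = 0.142) and Rpl35 (adjusted p = 0.148). Rpl7 had differed from DM by 0.30 ± 0.22 at 1 month and by 0.10 ± 0.20 at 6 months, against -0.91 ± 0.20 at 12 months. The same test for 80 µg MWCNT gave no member and 0% of all probe sets, with Rpsa the smallest (adjusted p = 0.717).

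The DM mice themselves differed between months. In DM mice of 12 months 4 members were higher than in DM mice of 1 month and none was lower, against 1.51% of all probe sets changed and 0.383% higher. The median difference was 0.32 over the members and 0.05 over all probe sets, with 50 of the 58 above 0. Rps19 ran from 6.42 to 7.52 (median 7.29) in the DM mice of 12 months and from 5.61 to 7.03 (median 6.58) in those of 1 month, a difference of 0.72 ± 0.22 (adjusted p = 0.0957). Rpl7 was higher by 0.69 ± 0.21 (adjusted p = 0.0944), Rpl35 by 0.65 ± 0.19 (adjusted p = 0.0862) and Rpl7a, a large subunit protein, by 0.36 ± 0.10 (adjusted p = 0.0660). In each of them the groups overlapped.

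Against 6 months, Rpsa was the only member called in the DM mice of 12 months (0.72 ± 0.16, adjusted p = 0.0647), where 0.068% of all probe sets passed, and the median over the members was 0.33. The family mean was higher by 0.32 ± 0.09, by 0.36 within arrays numbered up to 96 and by 0.02 within the later ones, which held 1 DM mouse of each month. Between 6 and 1 month, Rpl4 was lower in the DM mice of 6 months (-0.50 ± 0.15, adjusted p = 0.0655), where 3.94% of all probe sets changed, and the median over the members was -0.01. The family mean of DM mice was thus 5.91 ± 0.21 at 1 month (n = 7), 5.88 ± 0.16 at 6 months (n = 8) and 6.20 ± 0.14 at 12 months (n = 8). The 4 calls of 12 against 1 month rest on few mice. Without DM replicate 1 of 12 months 10 members were higher, without replicate 2 none, without replicate 3 2, and without each of replicates 4 to 8 1, while the family mean stayed between 0.28 and 0.33 above that of 1 month. It was 0.22 ± 0.11 above within arrays numbered up to 96 and 0.36 ± 0.17 within the later ones, which held 1 DM mouse of 12 months and 2 of 1 month. Natural killer markers moved with this comparison (4 of 8 lower, median -0.83), as did T cell markers (2 of 10 lower) and platelet markers (2 of 8 higher, median 0.32). Among all probe sets 1.13% were lower and 0.383% higher in it. The part of these markers was not tested.

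Genes that work with the ribosomal proteins were described from lists. Fau, whose precursor is cut to the small subunit protein eS30, fell in the nanotube trend (-0.49 ± 0.15, adjusted p = 0.0489) and differed by -0.53 ± 0.18 with crocidolite (adjusted p = 0.108). Of 15 other genes with TOP mRNAs, 3 were lower with crocidolite at 12 months, namely Eif3h, a subunit of initiation factor 3 (-0.62 ± 0.14), and Eef1d and Eef1b2, which reload elongation factor 1 with GTP (-0.58 ± 0.17 and -0.49 ± 0.15). In the trend 4 of these 15 were lower, namely Eif4b, a helper of the initiation helicase (-0.60 ± 0.17), Eef1g (-0.54 ± 0.13), Eif3f (-0.50 ± 0.16) and the nucleolar chaperone Npm1 (-0.48 ± 0.16). While no ribosomal protein gene passed there, Eif4b, Eif3f and Eef1g were also lower at 80 µg against DM (-0.73 ± 0.21, -0.67 ± 0.19 and -0.62 ± 0.15). The median of the 15 was -0.37 with crocidolite and -0.30 in the trend, beside -0.20 and -0.30 over the brighter probe sets. With crocidolite 2.02% of all and 5.42% of the brighter probe sets were lower. In the trend these shares were 5.07% and 14.7%. At 80 µg against DM 1.22% of all probe sets changed, and 2.84% of the brighter ones were lower.

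Of 28 genes of ribosome assembly, 1 was lower with crocidolite at 12 months, against 2.02% of all probe sets, namely Nhp2 of the H/ACA particles that guide pseudouridylation (-0.60 ± 0.19), with a median of -0.15. In the trend 3 of the 28 were lower, against 5.07% of all and 14.7% of the brighter probe sets, with a median of -0.35, namely Nop56 of the box C/D particles (-0.60 ± 0.21), Nop10 of the H/ACA particles (-0.58 ± 0.19) and Nob1, which cuts the end of the small subunit's RNA (-0.57 ± 0.17). None of the 13 genes that control translation of TOP mRNAs passed in either comparison, with medians of -0.22 and -0.28. In DM mice of 12 against 1 month, where 1.13% of all probe sets were lower, Larp1 (-0.89 ± 0.27, adjusted p = 0.0874) and Rptor, the subunit of mTOR complex 1 that holds its substrates (-0.80 ± 0.23, adjusted p = 0.0628), were lower, as was Polr1a of the assembly genes, the largest subunit of RNA polymerase I (-0.76 ± 0.23). None of the 6 genes of the p53 response and none of the 7 paralogues passed with crocidolite or in the trend. Of the look-alike genes left out of the family, Rpl6l fell in the trend (-0.56 ± 0.18, adjusted p = 0.0605), and Rps19bp1 and Rps23rg1 differed by -0.13 ± 0.24 and 0.35 ± 0.20 with crocidolite.

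Outside the family, the probe sets whose values followed the family mean most closely over all mice were Gm5614 (r = 0.83), Naca, a subunit of the complex that shields new chains at the ribosome (r = 0.81), and Eef1b2 (r = 0.79). They were followed by Sh3gl2, Sf3b6, a splicing factor subunit, Ndufs8 of respiratory complex I, the small nucleolar and Cajal body RNAs Snora68, Scarna6 and Snord13, and Gm12508 (r = 0.79 to 0.78). These are correlations over mice that share arrays and groups, given without a test.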

How the data were processed

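RNA from whole blood was extracted with a kit for small and large RNA and hybridised to Affymetrix Mouse Gene ST 2.1 arrays. No removal of globin mRNA is mentioned. The authors deposited log2 expression values per probe set, which the submitters' processing notes credit to RMA in oligo, with limma. RMA subtracts background, sets the probe values of all arrays to 1 distribution and then summarises probes. Differences are thus relative to the other genes of an array, and small ones at low signal are damped. The deposited probe set values did not share 1 distribution, as the array medians ran from 1.36 to 1.76. All columns were matched to samples and 0 columns of per-sample values went unused. Probe sets were named from GEO's platform annotation, 23521 with 1 symbol, 1820 with several (not used) and 16004 with none, and 23328 gene IDs were found in the RefSeq gene table. The 5 mice with 2 arrays each were averaged.

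A linear model over the 18 group means was fitted to the 23521 probe sets with limma 3.58.1 in R 4.3.3 (lmFit, eBayes), with contrasts against DM of the same month, a trend on log2 of dose plus 1, crocidolite against 80 µg MWCNT, DM between months and an F test of effects by month. Values were described with Python 3.11.15, pandas 2.3.3 and numpy 2.4.6, and the fit was tested on simulated data. The family mean is the mean over the 58 genes in a mouse. P-values measure the spread between mice. The number of arrays limits the precision.

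Members and gene lists were chosen with earlier results of these data known. Named were the members called, up to 8 falls and 8 rises a comparison, the 3 of smallest p where fewer than 3 passed, Rps19, Rpl5, Rpl11 and the stalk genes, the 6 brightest and 6 dimmest, the 3 of largest and of smallest SD, and the 10 most alike other probe sets. Alternatives were a second quantile normalization, only the compared groups in the fit, 1 array per repeated mouse, the array number as a block, no arrays of low correlation, the array spread as a covariate, array weights, no dim probe sets, the mean of a gene's probe sets, a 1.5-fold minimum, the dose in µg and the methods' analysis of variance. Chosen after seeing the data were the trend without DM, leaving out the repeated mice, each DM mouse of 12 months, or the 40 µg mouse that stood apart.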

Additional observations from a re-analysis of the deposited data

Results flagged for a closer look

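In 70 groups of mice tested for a value far from the others, 7 held one, where chance flags about 1 in 20 groups. The family mean of 1 mouse of the 40 µg MWCNT group at 12 months was 6.517, with the next mouse at 5.896. The same mouse was the highest of its group for Rps13 (7.304, next 5.145), Rps19 (7.815, next 6.611), Rpl14 (8.717, next 7.706) and Rps26 (9.566, next 8.536), so these flags are not independent. Rpl32 stood apart in 1 mouse of the 10 µg MWCNT group at 12 months (8.307, next 7.61). Rps19 stood apart downwards in 1 DM mouse of 12 months (6.424, next 7.142).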

How the results depend on the processing

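Of the results tried, many lost their call but none changed direction under the alternatives named here. The family mean differences of crocidolite, the trend and 80 µg against DM at 12 months and of DM at 12 against 1 month moved under them by less than the SD between mice. Within the later arrays alone, with 1 DM mouse of 12 months, the crocidolite difference was -0.16 and that of 80 µg -0.07, moves larger than that SD. The small difference of 1 µg MWCNT against DM at 12 months changed sign within these later arrays. The counts of members called moved more, and the causes were not tested. With crocidolite against DM at 12 months (16 members) the count was 10 with only the compared groups fitted, 6 without arrays of low correlation, 6 with the array spread as a covariate, 10 with a 1.5-fold minimum, 6 by the methods' analysis of variance and 11 to 22 when each DM mouse was left out. In the MWCNT trend at 12 months (13) it was 4 with only the compared groups, 0 after repeated quantile normalization, 3 without arrays of low correlation, 1 with the array spread, 6 with a 1.5-fold minimum, 0 with the dose in µg, 0 without DM, 23 without the 40 µg mouse that stood apart and 5 to 16 without each DM mouse. At 12 months against DM, where none was called, 10 µg gave 4 with only the compared groups, 3 with the first array of repeated mice, 4 with the array number as a block, 8 with array weights and 1 without dim probe sets. Likewise 40 µg gave 1 without dim probe sets and 20 without the 40 µg mouse. At 80 µg there were 5 with only the compared groups, 2 without arrays of low correlation, 5 with array weights, 5 without dim probe sets, 2 with the mean of probe sets and 6 by the methods' analysis of variance. Crocidolite against 80 µg gave 3 without arrays of low correlation. DM at 12 against 1 month (4) gave 1 with the array number as a block, 17 with array weights, 1 with the mean of probe sets, 2 by the methods' analysis of variance, 1 without the repeated mice and 0 to 10 without each DM mouse. DM at 12 against 6 months (1) gave 3 after quantile normalization, 0 with only the compared groups, 5 with the array spread, 8 with array weights, 4 without dim probe sets, and 0 with the mean of probe sets or the methods' analysis of variance. DM at 6 against 1 month (1) gave 2 with the array spread and 0 after quantile normalization, with the mean of probe sets, with a 1.5-fold minimum or by the methods' analysis of variance. The crocidolite effect by month (0) gave 9 with array weights, 3 without dim probe sets and 1 with the mean of probe sets. Of single named genes, 299 values kept their call and the others no longer passed. With the array spread as a covariate 12 named values lost their call and 9 kept it, while with array weights 3 lost it and 18 kept it. The 9 named values of the trend lost their call with the dose in µg and also without DM. Without the 40 µg mouse that stood apart these 9 kept it. No paired analysis was possible because each mouse was sampled at 1 month only, in 1 group, and replicate numbers only name mice. Signals near those of olfactory receptors limit what Rps14, Rpl39, Rpl30, Rplp2 and Rpl27a can show.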
